A study of Mus musculus with 2 samples.

Results

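The growth hormone (GH) receptor axis was described in regenerating mouse liver through 8 genes, Ghr, Jak2, Stat5a, Stat5b, Socs2, Cish, Bcl6 and Cux2. They were chosen by gene symbol, for their place in GH signaling, among 34745 genes listed by Ensembl identifier, and all 8 were found, each on 1 line. The choice of these genes, and of the lists used below, was made with earlier results of these data known. RNA-seq of poly(A) RNA was available for 1 library of the genotype labelled miRNA-182 KO and 1 library labelled WT, both from liver of male mice. The mice were 8 to 10 weeks old and had undergone partial hepatectomy (PH), the removal of 70% of the liver, and the livers were those of day 3 after the operation. The KO animals carried the deletion of miR-182-5p on a single allele, and the number of mice behind each library is not given in the sources used here. With 1 library per genotype no difference has a replicate check, no test of the genotypes was possible, and every interval below covers counting error only.

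GH binds a receptor on the hepatocyte, GHR, which activates the bound kinase JAK2, and JAK2 phosphorylates the transcription factors STAT5A and STAT5B. STAT5 dimers enter the nucleus and switch on Igf1 and also Socs2 and Cish, whose protein products dampen the same receptor. In male rodents GH is secreted in pulses, and the resulting pulses of liver STAT5 maintain a male pattern of gene expression. BCL6, a repressor found more in male liver, can occupy STAT5 sites, and CUX2, found more in female liver, represses male-biased genes.

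The STAT5 consensus, TTCNNNGAA, which reads the same on both strands, was sought in promoter windows of 250 bases before to 50 bases after each RefSeq start (GRCm38.p6). Of 12 windows covering 7 of the 8 genes, 3 windows of 2 genes, Cish and Bcl6, held it. Across the whole table it occurred in 8.30% of 32851 windows and in 9.55% of 27025 genes. The table gave no window for Socs2. The 3 windows with a match are shown because Cish and Bcl6 are also among the genes that differed most between the libraries, with matches in capitals. The Cish window is chr9:107296409-107296708 on the plus strand, and the Bcl6 windows are chr16:23981234-23981533 and chr16:23988803-23989102 on the minus strand.
Cish: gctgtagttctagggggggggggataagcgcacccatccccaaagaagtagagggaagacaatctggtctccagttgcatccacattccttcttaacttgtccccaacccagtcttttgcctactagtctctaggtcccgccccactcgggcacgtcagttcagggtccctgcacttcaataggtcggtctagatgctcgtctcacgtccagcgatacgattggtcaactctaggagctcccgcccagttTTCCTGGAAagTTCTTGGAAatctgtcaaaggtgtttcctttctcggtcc
Bcl6, window 1: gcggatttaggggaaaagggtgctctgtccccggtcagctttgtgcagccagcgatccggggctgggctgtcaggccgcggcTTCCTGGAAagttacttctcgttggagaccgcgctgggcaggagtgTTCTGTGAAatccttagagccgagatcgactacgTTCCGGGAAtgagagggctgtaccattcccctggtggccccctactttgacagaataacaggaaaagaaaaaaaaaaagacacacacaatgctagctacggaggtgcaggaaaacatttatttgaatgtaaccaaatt
Bcl6, window 2: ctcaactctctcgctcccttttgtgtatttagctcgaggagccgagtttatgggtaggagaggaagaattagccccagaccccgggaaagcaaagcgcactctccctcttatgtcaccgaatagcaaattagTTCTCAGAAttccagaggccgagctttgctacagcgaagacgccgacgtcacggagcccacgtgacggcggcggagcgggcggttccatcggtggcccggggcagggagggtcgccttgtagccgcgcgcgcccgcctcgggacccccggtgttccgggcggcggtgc
The Cish matches began at positions 1 and 12 from the annotated start. In Bcl6 they began at -168, -122 and -88 in window 1 and at -118 in window 2. A match describes letters only, and binding of STAT5 or BCL6 was not measured in these data.

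**Figure D1:**
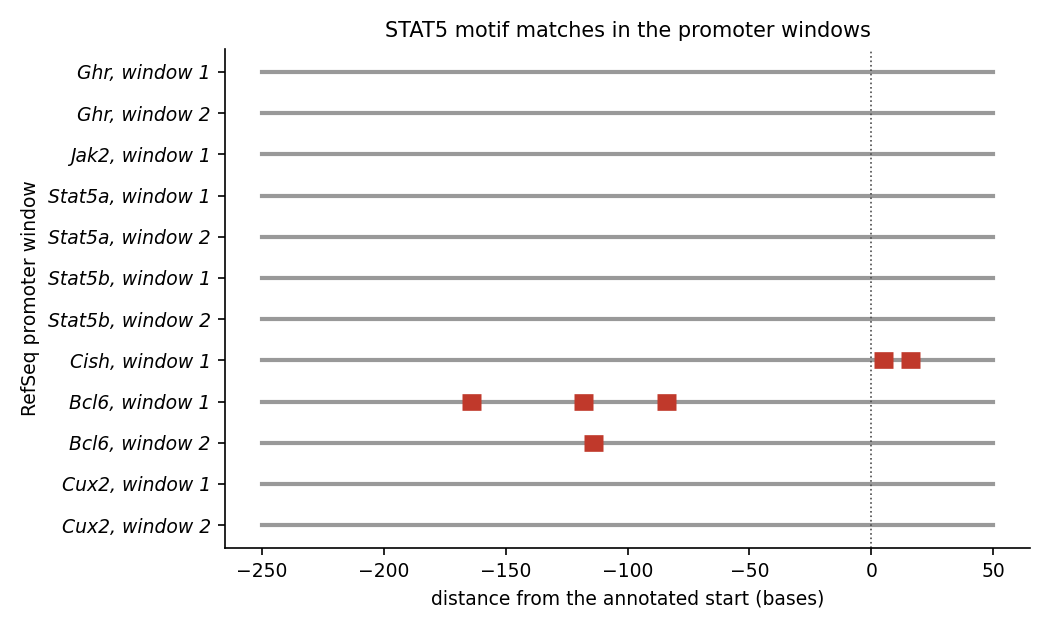
STAT5 motif matches (red blocks) in the 12 RefSeq promoter windows of 7 genes, drawn by distance in bases from the annotated start (dotted line). Cish has 2 matches just after the start, Bcl6 has 3 in window 1 and 1 in window 2, and the other 9 windows have none.

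The mature miR-182-5p, the microRNA whose gene was deleted, is shown with its seed (bases 2 to 8) in capitals, from RefSeq, at chr6:30165962-30165986 on the minus strand.
miR-182-5p: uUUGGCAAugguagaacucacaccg
The 7-base match to this seed, TTGCCAA, was found once in the longest annotated 3′ UTR of Ghr and once in that of Cish, and the UTRs of the other 6 genes held none. These sites are shown with the match in capitals, as transcribed, at chr15:3318209-3318215 on the minus strand for Ghr and chr9:107302276-107302282 on the plus strand for Cish (GRCm38).
Ghr: tatttaccattTTGCCAAgacctttgtggg
Cish: agggcagtaacTTGCCAAgaggagccacag
They lie at base 1527 of 1982 in the Ghr UTR and at base 1740 of 2248 in the Cish UTR. Neither is the 8-base match TTGCCAAA. Of 12494 tested genes with an annotated 3′ UTR, 11.97% held a 7-base match and 4.99% an 8-base match. Mir182 itself was not analysed here, which leaves the genotype labels unchecked by the targeted gene.

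The libraries held 13247497 counts (KO) and 13163348 counts (WT). Mitochondrially encoded genes (13 listed) made up 51.7% of them in KO and 31.0% in WT. Counts were therefore scaled with edgeR's TMM, which limits the weight of the most abundant genes. Fold changes are given as log2 of KO over WT on TMM-scaled counts, and a gene was called higher or lower at a 2-fold difference. Scaling by total counts moved the median of all genes tested from 0.00 to -0.60, and it lowered the value of each of the 7 genes of the axis with at least 10 counts by about as much. With TMM, 9.46% of 13561 genes tested were called higher in KO and 9.94% lower. Of the 7 genes of the axis tested, 2 were called higher (Socs2 and Cish) and 1 lower (Bcl6). The same 3 calls were made with total counts, under which 4.6% of all genes tested were called higher and 26.6% lower.

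Levels of different genes were compared as TMM-scaled CPM (counts relative to the scaled library size) per kb of merged exon, called the level per kb here. Ghr had the highest level of the 8 genes in both libraries, above 91.1% of genes in KO and 87.7% in WT. In KO the order was Ghr, Stat5b, Socs2, Bcl6, Jak2, Cish, Stat5a and Cux2. In WT it was Ghr, Bcl6, Stat5b, Stat5a, Jak2, Socs2, Cish and Cux2. The counting intervals of neighbours overlapped for Socs2 and Bcl6, Jak2 and Cish, and Cish and Stat5a in KO, and for Stat5a and Jak2, and Jak2 and Socs2, in WT. The authors' FPKM, which divide by a longer exon length for 7 of the 8 genes, exchanged Socs2 with Bcl6 in KO and Stat5a with Jak2 in WT and kept the rest of the order.

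**Figure D2:**
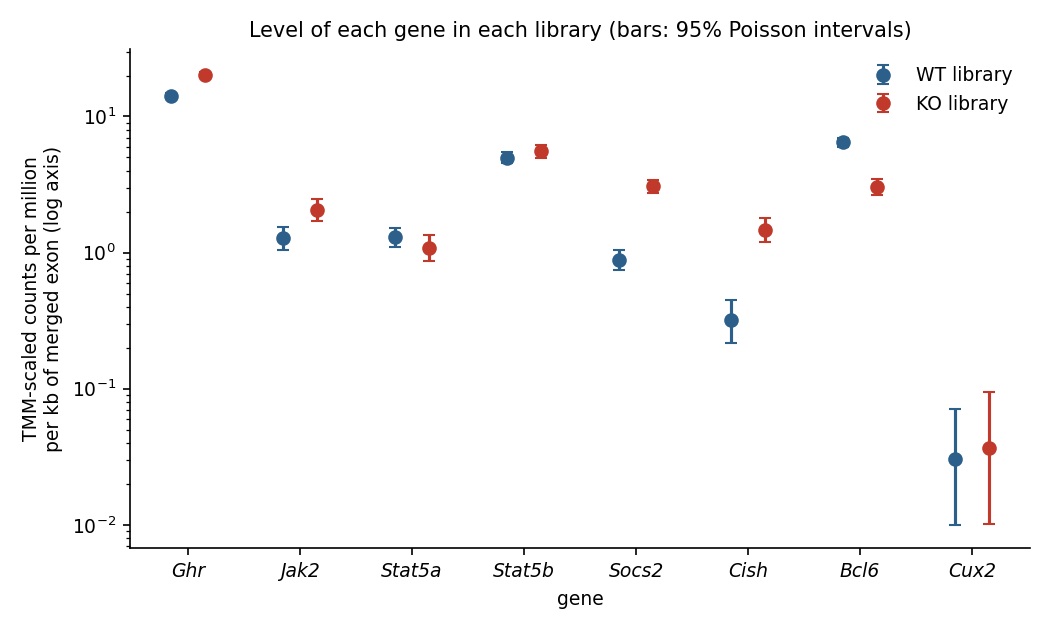
Level of the 8 genes in the WT library (blue) and the KO library (red), as TMM-scaled CPM per kb of merged exon on a log axis, with 95% Poisson intervals of the count. Socs2 and Cish sit higher in KO, Bcl6 sits lower, and Cux2 is near the limit of detection in both.

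The receptor and its kinase came first in the pathway. Ghr (ENSMUSG00000055737, chr15:3317760-3583492, minus strand), which encodes the GH receptor, had 1981 counts in KO and 2077 in WT, a level per kb of 20.3 and 14.1. Its log2 fold change was 0.52 (95% interval 0.43 to 0.61), which did not reach the 2-fold call and was -0.077 with total counts. Jak2 (ENSMUSG00000024789, chr19:29251828-29313080, plus strand), the kinase bound to GHR, had 112 counts in KO and 104 in WT, a level per kb of 2.07 and 1.28. Its log2 fold change was 0.70 (0.30 to 1.10), and 0.10 with total counts. Raw counts of receptor and kinase were thus close in the libraries. The sign of the Ghr value turned with total counts, while Jak2 stayed above 0 under each setting tried. The ratio of Ghr to Jak2 counts within a library, on which the scaling of libraries has no bearing, was 17.7 in KO and 20.0 in WT, a log2 difference of -0.18 (-0.58 to 0.23).

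Stat5b was the more abundant STAT5 gene, and neither gene was called. Stat5b (ENSMUSG00000020919, chr11:100780731-100850724, minus strand) had 331 counts in KO and 446 in WT, a level per kb of 5.56 and 4.97 and a log2 fold change of 0.16 (-0.05 to 0.37). Stat5a (ENSMUSG00000004043, chr11:100859351-100885169, plus strand) had 83 and 150 counts, a level per kb of 1.08 and 1.30 and a log2 fold change of -0.26 (-0.67 to 0.13). Both intervals held 0. With total counts the values were -0.44 for Stat5b, of the opposite sign, and -0.86 for Stat5a. The paralogs lie next to each other and share sequence, 11.6% of the 51-base words of the longest Stat5b transcript and 10.5% of those of Stat5a, so reads could be divided between them. Summed, they had 414 counts in KO and 596 in WT, a log2 fold change of 0.07 (-0.12 to 0.25). Stat5b took 80.0% of these counts in KO (75.8% to 83.7%, exact Clopper-Pearson) and 74.8% in WT (71.1% to 78.3%), and the intervals overlapped. Stat5a also overlaps Stat3 by 72 exonic bases on the opposite strand, and since the counting is not stated to use strand, reads there cannot be told apart. Stat3 had 608 and 884 counts and a log2 fold change of 0.05.

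The feedback inhibitors Socs2 and Cish were both called higher in KO. Socs2 (ENSMUSG00000020027, chr10:95385362-95417180, minus strand), whose protein marks GHR for degradation, had 315 counts in KO and 137 in WT, a level per kb of 3.07 and 0.886. The KO library was 3.46-fold higher, a log2 fold change of 1.79 (1.50 to 2.09) that lay above 96.4% of genes tested. Cish (ENSMUSG00000032578, chr9:107296026-107302784, plus strand), which encodes CIS, a protein that competes for docking sites on activated receptors, had 102 counts in KO and 33 in WT, a level per kb of 1.48 and 0.317. The KO library was 4.59-fold higher, a log2 fold change of 2.20 (1.64 to 2.83), above 97.4% of genes tested. These genes stood higher in KO under all scalings tried, at 1.19 and 1.60 with total counts. The log2 fold changes of Socs2 and Cish differed by -0.43 (-1.11 to 0.23), an interval that held 0. In bulk liver, a difference in RNA per cell and a difference in the number of cells that express a gene cannot be told apart. Cish overlaps the antisense pseudogene Gm17040 (14 and 10 counts) and Gm17041 (0 in both) on the opposite strand and shares 13.1% of its 51-base words with other genes. Socs2 shares 7.16% with Gm9847, which had 20 counts in KO and 4 in WT, and Gm8000, which had 0 in both.

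Bcl6 was the gene of the axis called lower. Bcl6 (ENSMUSG00000022508, chr16:23965052-23988852, minus strand) had 219 counts in KO and 705 in WT, a level per kb of 3.04 and 6.49. The KO library was 2.13-fold lower, a log2 fold change of -1.09 (-1.32 to -0.87) that lay below 91.5% of genes tested, and its interval included values short of the 2-fold line. With total counts it was -1.69. Cux2 (ENSMUSG00000042589, chr5:121856366-122050102, minus strand) had 4 counts in KO and 5 in WT, under the minimum of 10, and a difference was not detectable at this depth (log2 fold change 0.24, -2.06 to 2.49).

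Bcl6 is also expressed in cells other than hepatocytes, whose markers were counted beside it. All 7 markers of Kupffer cells and macrophages were below 0 (median -0.29, 2 called lower), and their summed level was 104 TMM-scaled CPM in KO and 140 in WT. Of 7 endothelial markers 6 were below 0 (median -0.47, 1 called lower), with a summed level of 71.2 and 88.8. Of 10 stellate cell markers 8 were below 0 (median -0.51, 2 called lower), with a summed level of 187 and 247. Of 4 B cell markers tested 3 were above 0, with 1 called higher, and the summed level was 8.55 and 7.22. None of the 6 T and NK cell markers reached 10 counts. Hepatocyte markers summed to 50110 in KO and 50961 in WT, mostly through Alb with 31603 and 33090. Of these 8 markers 5 were below 0 and 3 above (median -0.16). The 1 called lower was Apob, with 1517 and 17808 counts (-2.96, -3.04 to -2.89). Neutrophil markers had a median of 0.38 (4 tested, none called), cholangiocyte markers 0.40 (5 tested, 2 called higher) and erythroid markers -0.59 (5 tested, 1 called higher and 1 lower). Over all genes tested 9.46% were called higher and 9.94% lower. With total counts 3 Kupffer cell and macrophage, 4 endothelial, 6 stellate cell, 3 hepatocyte and 4 erythroid markers were called lower and none higher. Of cholangiocyte markers 2 were then called higher, and of B cell markers 1 higher and 1 lower. Over all genes it was 4.6% higher and 26.6% lower. The neutrophil and cholangiocyte medians were then -0.22 and -0.20, beside -0.60 over all genes. The part of these cell types in the Bcl6 value was not tested.

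**Figure D3:**
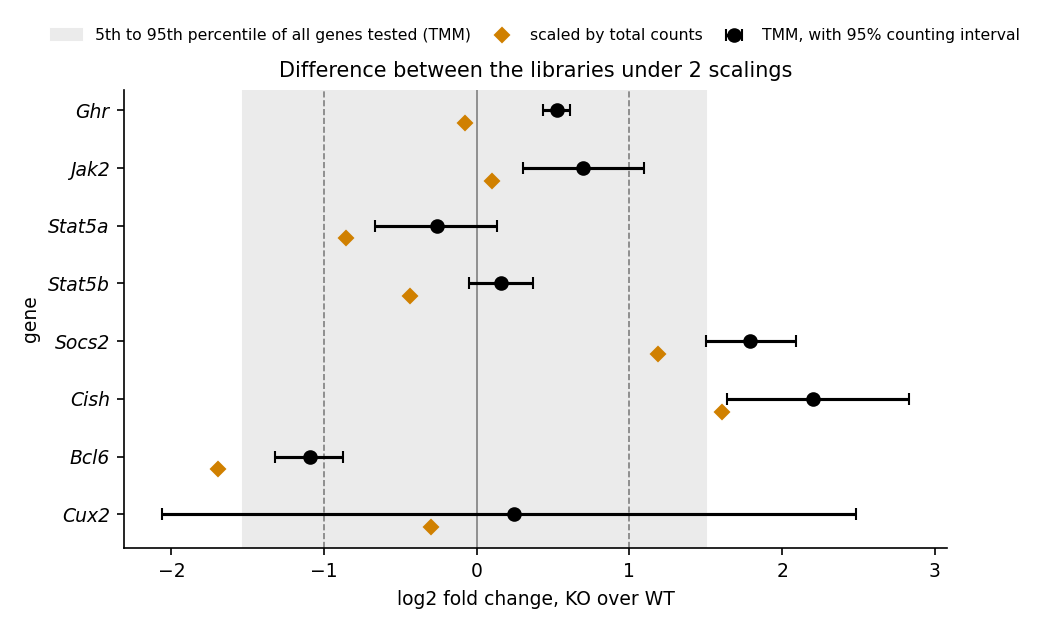
Log2 fold change, KO over WT, of the 8 genes with TMM (black, 95% counting intervals) and scaled by total counts (orange), with dashed lines at the 2-fold call and grey between the 5th and 95th percentile of all genes tested (-1.53 and 1.50). Socs2 and Cish stay past the line on the right and Bcl6 past that on the left under both scalings, while Ghr, Stat5b and Cux2 cross 0.

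Ratios between genes within a library remove the scaling of libraries. The ratio of Socs2 to Bcl6 counts was 1.44 in KO and 0.194 in WT, a log2 difference of 2.89 (2.51 to 3.26). The ratio of Cish to Bcl6 was 0.466 in KO and 0.0468 in WT, a log2 difference of 3.31 (2.69 to 3.97). The ratio of Stat5b to Socs2 was 1.05 in KO and 3.26 in WT, a log2 difference of -1.63 (-1.998 to -1.27), and that of Stat5b to Cish was 3.25 and 13.5, a log2 difference of -2.06 (-2.71 to -1.44). Socs2 and Cish were thus higher in KO relative to Stat5b, which encodes a factor that induces them, and Bcl6 was lower relative to each of the other 6 genes tested. Of the 21 pairs of the 7 genes, the interval held 0 for 3, Ghr with Jak2, Stat5a with Stat5b and Socs2 with Cish.

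**Figure D4:**
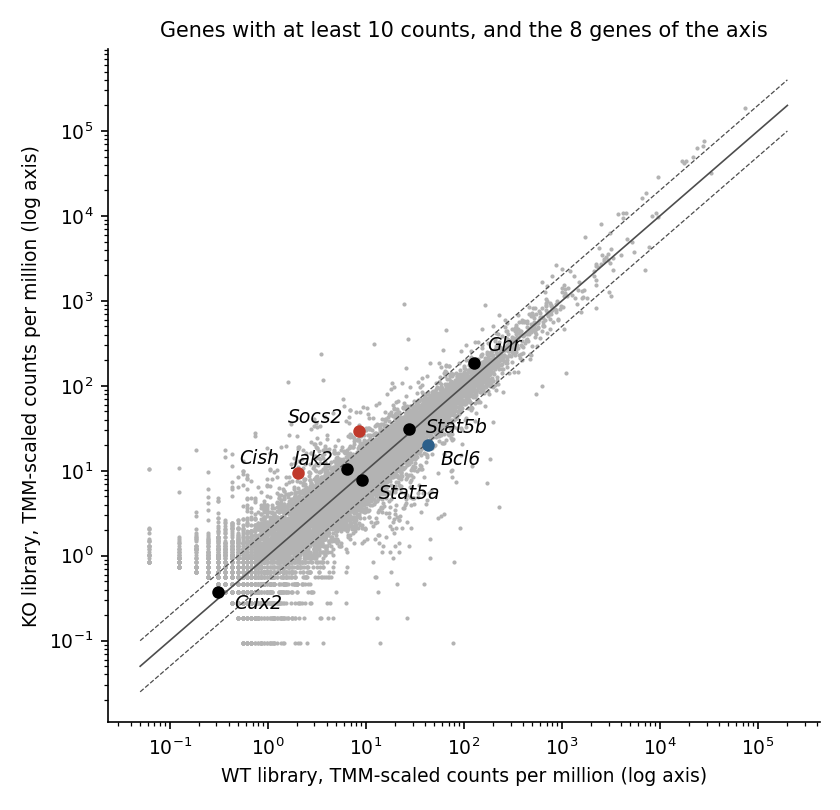
TMM-scaled CPM in the WT library (horizontal) and the KO library (vertical), log axes, for genes with at least 10 counts and at least 1 count in each library (grey), with the 8 genes marked, red for higher and blue for lower. The solid line is equality and the dashed lines are 2-fold, and Cux2 lies among the lowest genes.

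Other parts of cytokine signaling were compared through lists, beside 9.46% of all genes tested called higher and 9.94% called lower with TMM. Earlier results of these data were known when the lists were chosen, so the shares called in this and the following lists are not independent of the data. Of 8 other JAK and STAT genes tested all were above 0 (median 0.67), but only Stat2, which acts in interferon signaling, was called, with 2781 counts in KO and 1931 in WT (log2 fold change 1.12, 1.03 to 1.20). Of 8 other receptor genes tested, Lifr, encoding the receptor of leukemia inhibitory factor, was called higher, with 3277 and 1694 counts (1.54, 1.46 to 1.63), and none was called lower. With total counts neither gene was called, and 1 other receptor gene was called lower (12.5%, beside 26.6% of all genes). The medians were then 0.07 for the JAK and STAT genes and -0.30 for the receptors, beside -0.60 over all genes.

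Of 17 other genes grouped here as inhibitors of cytokine signaling, 6 were called higher and 1 lower, with a median of 0.48. These are 35.3% and 5.88%, beside 9.46% and 9.94% of all genes tested. Socs6 had 116 counts in KO and 2 in WT (log2 fold change 6.08, 4.56 to 9.51). It shares 11.7% of its words with Gm9449. Ptpn1, a phosphatase that acts on JAK2, had 170 and 61 counts (2.06, 1.64 to 2.52). Socs5 had 69 and 40 counts (1.37, 0.80 to 1.98) and Socs7 had 99 and 72 (1.05, 0.60 to 1.51). Socs1 had 10 counts in KO and 0 in WT, 5.03-fold higher with the 0 set to a floor of 3 counts. Its log2 counting interval began at 1.76 and had no upper end. Socs3 had 305 and 228 counts (1.01, 0.76 to 1.27). Socs1 and Socs3 are named because they complete the calls, outside the naming rule. Socs1 and Socs6 reached 10 counts only through KO. Sirpa, a receptor that recruits phosphatases and is prominent on macrophages, was the gene called lower, with 15 counts in KO and 357 in WT (-3.95, -4.83 to -3.24). The part of macrophages, whose markers are given above, in this value was not tested. With total counts 3 inhibitors were called higher and 3 lower (17.6% each, beside 4.6% and 26.6% of all genes), with a median of -0.12 beside -0.60 over all genes.

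Igf1, a gene that STAT5 switches on in liver, was not called. Igf1 had 11193 counts in KO and 11285 in WT (log2 fold change 0.58, 0.54 to 0.62), and Igfals, which encodes the acid-labile subunit that carries IGF1 in blood, had 740 and 774 (0.53, 0.38 to 0.67). Of the IGF-binding proteins, Igfbp4 was called higher, with 3792 and 433 counts (3.72, 3.58 to 3.87), and Igfbp3, with 71 and 48 counts (1.15, 0.61 to 1.72). Igfbp2 was called lower, with 1142 and 3632 counts (-1.08, -1.17 to -0.98). Igfbp1 had 493 and 882 counts (-0.25, -0.41 to -0.09). Of the 6 genes of the list 2 were called higher and 1 lower (33.3% and 16.7%, beside 9.46% and 9.94% of all genes tested), with a median of 0.55. With total counts the sign turned for Igf1 (-0.02) and Igfals (-0.07), and the median was -0.05 beside -0.60 over all genes. Then 1 gene was called higher and 1 lower (16.7% each, beside 4.6% and 26.6% of all genes).

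Genes with sex-biased expression in mouse liver, a pattern set by GH, were also counted. Of 24 female-biased genes 13 reached 10 counts, and 8 were called lower and none higher (median -1.28), beside 9.94% and 9.46% of all genes tested. Among them Prom1 had 8 counts in KO and 105 in WT (-3.06, -4.37 to -2.09), and Sult1e1, an estrogen sulfotransferase, had 2 and 67 (-4.22, -7.55 to -2.56). Prom1 and Sult1e1 reached 10 counts only through WT, as did Acot3, also called lower, with 3 and 34 counts. So did A1bg (5 and 15) and Cyp2a4 (6 and 14), which were not called. For such genes the filter itself favours lower values in KO. Ntrk2 had 14 and 63 (-1.55, -2.53 to -0.73), and Cyp2c40 had 64 and 315 (-1.70, -2.12 to -1.32), of which 71.5% of the words occur in other genes, chiefly of its own family. Of 23 male-biased genes 11 were called higher and none lower (median 0.94), beside 9.46% and 9.94% of all genes tested. Moxd1 had 59 counts in KO and 0 in WT, 29.7-fold higher with the 0 set to a floor of 3 counts. It reached 10 counts only through KO. Its log2 counting interval began at 4.55 and had no upper end. Susd4 had 224 and 49 (2.77, 2.33 to 3.26), Hsd3b5 420 and 103 (2.61, 2.31 to 2.95) and Mup21 870 and 267 (2.29, 2.10 to 2.50), the last 2 in families with shared sequence (20.7% and 18.8% of words). Not every gene of these lists followed the median. Of the male-biased genes 20 were above 0 and 3 below, namely Mup20 with 18812 counts in KO and 35990 in WT (-0.34, -0.37 to -0.32), Gstp1 at -0.16 (-0.20 to -0.11) and Cyp4a12b at -0.01 (-0.19 to 0.16). Of the words of Mup20, Gstp1 and Cyp4a12b, 50.1%, 62.1% and 48.9% occur in other genes, so their reads could be divided. The same holds for genes called higher, namely Mup1 (94.5%), Selenbp2 (51.4%), Ugt2b38 (36.8%) and Serpina1e (34.6%). It also holds for Cyp2c69 (54.3%), a female-biased gene called lower. Of the female-biased genes 11 were below 0 and 2 above, Tox at 0.13 (-0.89 to 1.13) and Fmo2 at 0.21 (-0.56 to 0.98). Mup20, Gstp1, Cyp4a12b, Tox and Fmo2 were named after their values were seen, because they ran against the rest of their lists. Acot3, A1bg, Cyp2a4, Mup1, Selenbp2, Ugt2b38, Serpina1e and Cyp2c69 were named for the filter or for shared sequence, outside the naming rule. With total counts 6 male-biased genes were called higher and none lower (median 0.35), and 10 female-biased genes were called lower and none higher (median -1.87), beside a median of -0.60 over all genes. Over all genes 4.6% were then called higher and 26.6% lower. With TMM and a minimum of 1 count, 11 female-biased genes were called lower and 1 higher, beside 2763 and 2269 of all genes. The female-biased gene called higher was Cyp3a44, under the minimum of 10 with 4 counts in KO and 0 in WT. The animals of both libraries were male.

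Of 4 lipid genes known to rise in liver that lacks STAT5, 3 were called lower (median -1.83), beside 9.94% of all genes tested. Cd36, a fatty acid transporter, had 37 counts in KO and 320 in WT (-2.51, -3.05 to -2.03), and Pparg, a nuclear receptor of fat storage, had 24 and 81 (-1.15, -1.88 to -0.49). Mogat1 had 0 and 14 counts, 3.10-fold lower with the 0 set to the floor, and is named because it completes the calls. It reached 10 counts only through WT. Its log2 counting interval had no lower end and reached up to -1.14. Vldlr, a lipoprotein receptor, had 8 and 6 counts (0.94, -0.71 to 2.81) and was not called. With total counts 3 of the 4 were called lower, beside 26.6% of all genes, with a median of -2.42 beside -0.60 over all genes. Cd36 and Pparg are expressed in macrophages and endothelial cells too. Of the 7 markers of each given above, 7 and 6 were below 0, and 2 and 1 were called lower. The part of these cells was not tested.

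The authors' annotation assigned 159 genes to the JAK-STAT signaling pathway, 6 of the 8 genes among them. Of 96 tested, 14 were called higher and 4 lower (14.6% and 4.17%, beside 9.46% and 9.94% of all genes tested), with a median of 0.19. This list overlaps the lists above, so part of these calls are the same genes. Beside Socs6, Cish and Socs2, Pik3cb, a catalytic subunit of PI3-kinase, was among those that rose most, with 86 and 18 counts (2.81, 2.10 to 3.67). The 4 called lower were Cntf, Pik3ca, Cdkn1a and Fhl1. Pik3ca, another catalytic subunit of that kinase, had 29 and 317 counts (-2.84, -3.46 to -2.31). Cdkn1a, encoding the cell cycle inhibitor p21, had 228 and 1002 (-1.54, -1.76 to -1.33), and Fhl1 had 16 and 69 (-1.49, -2.40 to -0.72). Cntf had 0 counts in KO and 67 in WT, 14.8-fold lower with the 0 set to the floor. Its log2 counting interval had no lower end and reached up to -3.55. Of the words of Cntf, 78.0% occur in Zfp91, which it overlaps on the same strand and which had 630 and 874 counts. With total counts 6 genes of the pathway were called higher and 14 lower (6.25% and 14.6%, beside 4.6% and 26.6% of all genes), with a median of -0.41 beside -0.60 over all genes.

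**Figure D5:**
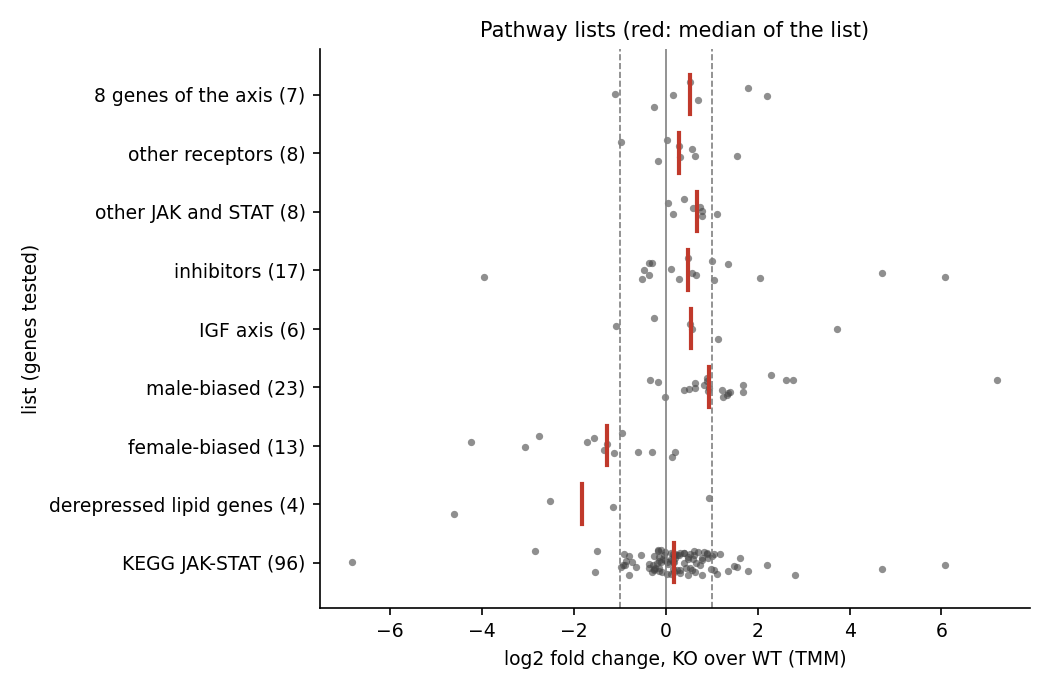
Log2 fold change, KO over WT with TMM, of each gene tested in 9 groups of genes (points), with the number tested in brackets, the median in red and dashed lines at the 2-fold call. The female-biased and derepressed lipid genes (genes known to rise without STAT5) lie mostly to the left and the male-biased genes mostly to the right.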

How the data were processed

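Poly(A) RNA of liver was sequenced in 1 KO and 1 WT library. The authors deposited unnormalized counts for each gene and library, together with FPKM values that they scaled by the total count. The day of sampling and the deletion of a single allele were taken from the study's methods. The submitters' processing notes name HISAT2 2.0.4, StringTie and edgeR and a human build, although the deposited gene coordinates are those of mouse GRCm38. Of 34745 identifiers 34267 were in GENCODE M21, 80.8% with the same coordinates, as were all 8 genes of the axis. The length behind the FPKM was within 1% of the sum of distinct exons for 68.85% of 12122 genes, which counts overlapping exons repeatedly, so levels were compared per kb of merged M21 exons. Columns of the authors' own comparison were not used.

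Counts were scaled by TMM in edgeR 4.0.16 (R 4.3.3), with a prior count of 0.5. A gene was tested if its counts in the KO and WT libraries summed to 10 or more. Intervals are exact 95% Clopper-Pearson intervals of the KO share of the 2 counts, Poisson intervals of a count, or conditional intervals of an odds ratio for pairs of genes. Reads are not independent molecules, so these cover counting error only. Python 3.11.15, pandas 2.3.3, scipy 1.17.1 and matplotlib 3.10.9 were used. The scaling, the fold changes and their intervals were tested on simulated Poisson counts. That simulation had no difference in mitochondrial share between the libraries and no spread between animals. Named genes were the 8 genes, the IGF list, and at most 4 genes that rose and 4 that fell most per other list with at least 50 counts. The genes and lists were chosen with earlier results of these data known. Alternatives were total counts, DESeq2 1.42.0 size factors, the upper quartile, total counts without mitochondrial genes, a prior count of 5, the authors' FPKM (pseudocount 0.1), minimums of 1 and 50 counts, and Stat5a and Stat5b summed.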

Additional observations from a re-analysis of the deposited data

How the results depend on the processing

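No paired analysis was possible because KO and WT are represented by 1 library each, and no replicate could be left out. With DESeq2 size factors, the upper quartile, total counts without mitochondrial genes and a prior count of 5, the value of each of the 8 genes stayed within its counting interval. With total counts the log2 fold changes were -0.077 for Ghr, 0.10 for Jak2, -0.86 for Stat5a, -0.44 for Stat5b, 1.19 for Socs2, 1.60 for Cish and -1.69 for Bcl6. With the authors' FPKM, which are scaled by total counts, and a pseudocount of 0.1, they were -0.077, 0.092, -0.77, -0.43, 1.09, 1.29 and -1.65 in the same order. Both settings left out the TMM factors of 0.812 (KO) and 1.23 (WT). The number of genes called higher, 1283 with TMM, was 624 with total counts, 405 with FPKM, 2269 with a minimum of 1 count and 656 with a minimum of 50, and the number called lower, 1348, was 3605, 2934, 2763 and 730. A minimum of 50 counts tests fewer genes and a minimum of 1 count more. Depth limited Cux2, and the spread between animals could not be measured.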
